A study of Mus musculus with 6 samples.

Results

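The class 4 semaphorins and the plexins of the B and D families were followed in cultured cerebellar granule cells (GCs) after knockdown (KD) of YTHDF2, a protein that binds N6-methyladenosine in mRNA. The members were taken by gene name, in a list chosen with earlier results of these data known. They are the 6 semaphorins Sema4a, Sema4b, Sema4c, Sema4d, Sema4f and Sema4g and the 4 plexins Plxnb1, Plxnb2, Plxnb3 and Plxnd1, which make 10 of the 53421 genes in the count table, and all 10 passed the filter on low counts. GCs were dissociated from the cerebellum of C57BL/6 mice, given in the labels as postnatal day 8, infected with a lentivirus and selected with puromycin, so each library is a selected culture and not a sorted cell type. The 3 shYthdf2 libraries carried 1 hairpin against Ythdf2 and the 3 shCtrl libraries a control hairpin, and both groups were otherwise of the same strain, age and culture. RNA-Seq was read as counts per gene, with 17246821 to 21546595 counts in a library.

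The labels of the 6 libraries contradict each other. The sample descriptions name 3 libraries KD2_3 and 3 libraries KDC, and these were taken as shYthdf2 and shCtrl, since the number in KD2_3 is that of a Ythdf2 hairpin of the study. The titles and the genotype field instead call the KD2_3 libraries wild type and the KDC libraries the knockdown. Every direction given here follows the descriptions and would invert under the titles. Ythdf2 itself had 501.2, 402.7 and 501.3 normalized counts in shYthdf2 replicates 1, 2 and 3 and 618.7, 841.5 and 628.9 in shCtrl. The groups did not overlap and the shYthdf2 mean was 67.3% of the shCtrl mean, with a log2 fold change of -0.57 (SE 0.16) and an edgeR adjusted p of 0.125, above the threshold. The difference was below 0 in all 3 replicate numbers, and the adjusted p was 0.0465 with a term for replicate 2 in the fit, 0.0392 in DESeq2 and 0.00124 with both libraries of replicate 2 left out, within a range of 0.00124 to 0.363 over 15 alternatives. Replicate 2 stood apart in both groups. Over 17214 genes, replicates 1 and 3 correlated at r = 0.990 in shYthdf2 and 0.991 in shCtrl, the 2 libraries numbered 2 correlated at 0.984 with each other, and each correlated at 0.962 to 0.976 with its own group. Markers of granule neurons were present in every library, with 131000 to 148000 summed normalized counts over Pax6, Neurod1, Zic1, Zic2, Rbfox3, Cntn2 and Gabra6, beside markers of oligodendrocyte lineage, astrocytes and microglia. The study's methods call the 3 libraries of a group biological replicates. Nothing in the labels ties a library to a separate litter or culture, so what sets the replicates apart is not given. The p-values measure the spread between these libraries.

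Semaphorins are guidance cues that share an extracellular sema domain, and plexins are their receptors. Class 4 semaphorins are anchored in the membrane and can act on a neighbouring cell or, once shed by proteases, at a distance. The cytoplasmic part of a plexin is a GTPase-activating domain for Ras-family proteins, and the B plexins also bind exchange factors that switch on RhoA, which drives actomyosin contraction and the collapse of growth cones. Plexin-B2 is best known in the cerebellum, where GC progenitors of the external granule layer carry it, and Sema4C is among its ligands.

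The promoter sequences of 2 members, picked by their values, are shown. Sema4c had the lowest p of the family and Plxnb3 the widest interval of the fold change, and neither passed the adjusted p. Both sequences are from RefSeq on GRCm38.p6, 250 bases before to 50 bases after the start. They are written 5′ to 3′ on the strand of the gene, with each CG dinucleotide in capitals. Sema4c lies on the minus strand (chr1:36558332-36558631) and Plxnb3 on the plus strand (chrX:73756853-73757152).
Sema4c: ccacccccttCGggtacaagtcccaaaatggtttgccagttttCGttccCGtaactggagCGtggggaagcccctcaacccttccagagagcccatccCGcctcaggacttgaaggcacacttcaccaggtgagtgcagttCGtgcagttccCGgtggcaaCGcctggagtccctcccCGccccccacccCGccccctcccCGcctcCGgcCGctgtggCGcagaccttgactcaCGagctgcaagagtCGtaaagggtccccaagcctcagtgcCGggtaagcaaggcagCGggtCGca
Plxnb3: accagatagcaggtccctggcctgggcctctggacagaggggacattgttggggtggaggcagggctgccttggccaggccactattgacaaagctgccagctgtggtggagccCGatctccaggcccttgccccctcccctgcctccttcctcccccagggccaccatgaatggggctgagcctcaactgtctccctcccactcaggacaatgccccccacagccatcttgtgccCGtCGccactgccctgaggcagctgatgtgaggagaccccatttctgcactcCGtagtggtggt
The Sema4c window held 19 CG dinucleotides and a further Sema4c start held 30, whereas the Plxnb3 window held 4, and the median over 32851 promoters was 7. The 10 genes had 18 promoters in the table. GGGCGG, searched on both strands, was present in 13 of the 18 and in 35.7% of all promoters. TATAAA was in 0 of the 18 and in 13.6% of all, and CCAAT was in 4 of the 18 and in 37.4% of all. These are counts of letters in the windows, and several of the 18 promoters belong to the same gene. A link between these letters and the RNA values was not tested.

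The letters GGACT, the core of the sequence in which N6-methyladenosine is most often found, were counted on the sense strand of the longest coding transcript of each gene. They occurred 4 times in Sema4g and in Plxnb3 and 11 times in Plxnd1, the fewest and the most of the 10. Per kilobase, the density went from 0.663 in Plxnb3 to 2.03 in Sema4b, around a median of 1.05 over 13719 genes, and 93.1% of those genes held the letters at least once. Sema4c had 6, a density of 1.54 that was above that of 76.0% of genes. A match of letters is not a methylated site, and methylation was not measured in these libraries.

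The levels of the family differed widely when they were set per kilobase of exon (RPKM, from the normalized counts). Plxnb2 was the highest in shCtrl, with 60.4 ± 3.78 RPKM (SD, n = 3), and no shCtrl library of another member reached it. It made up 73.5 ± 0.36% of the summed RPKM of the 4 plexins in shCtrl and 71.3 ± 2.41% in shYthdf2. The semaphorins Sema4g, Sema4c and Sema4f followed at 31.8 ± 7.29, 29.5 ± 3.63 and 26.0 ± 2.80 RPKM, and each overlapped with its neighbour in that order. They accounted for 30.3%, 28.7% and 25.0% of the semaphorin sum. A lower group held Plxnd1 (10.4 ± 2.44 RPKM), Sema4d (9.93 ± 0.80 RPKM) and Plxnb1 (9.53 ± 2.87 RPKM), neighbours that could not be told apart by their libraries. Sema4b came next at 4.45 ± 0.71 RPKM. Sema4a (2.25 ± 0.27 RPKM) and Plxnb3 (1.87 ± 1.43 RPKM) were the lowest, and their libraries overlapped. With the length of the longest transcript in place of the exons, only Sema4d and Plxnd1 exchanged places.

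**Figure D1:**
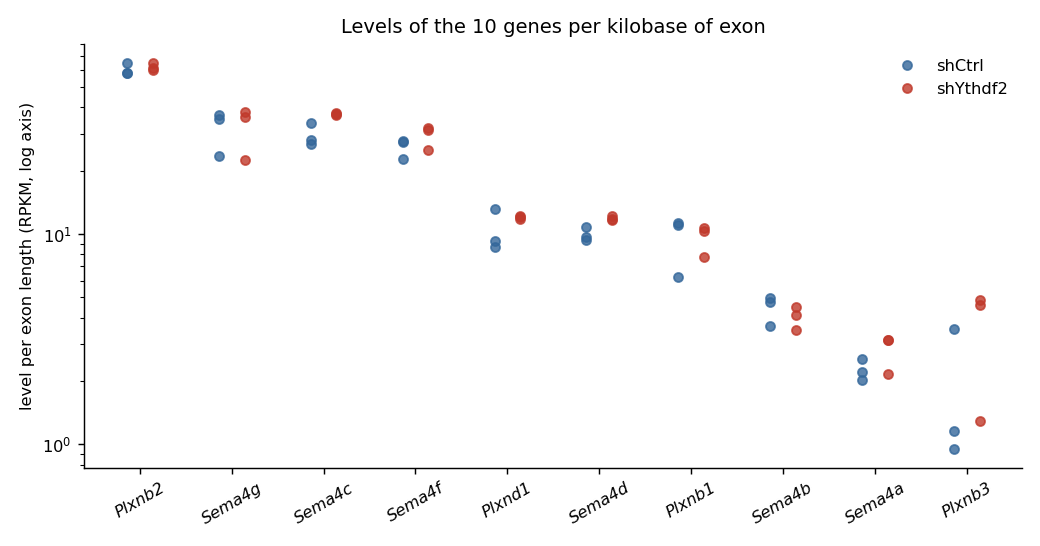
Level of each of the 10 genes per kilobase of exon (RPKM, log axis), with 1 point per library, shCtrl in blue and shYthdf2 in red, ordered by the shCtrl mean. Plxnb2 is the highest at 60.4 RPKM in shCtrl and Plxnb3 the lowest at 1.87 RPKM, with the widest scatter.

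The question put to the 10 genes was whether their RNA differed after YTHDF2 KD. None of them passed an adjusted p of 0.05 in edgeR's quasi-likelihood test, where 0.604% of the 17214 genes did. At an unadjusted p of 0.05, which 20.1% of all genes reached, 2 of the 10 did, Sema4c and Sema4d. Both were higher in shYthdf2, a direction in which 9.5% of all genes reached that p, while 10.6% reached it lower and no member did. Sema4c and Sema4d were also the 2 members whose libraries did not overlap between the groups, beside 26% of all genes. These shares are close to the background, so the counts are no result about the family. In direction, 9 of the 10 log2 fold changes were above 0, with a median of 0.19. Over all genes, 50.84% were above 0, with a median of 0.01. The fold changes of Plxnb1, Sema4g and Plxnb2 were 0.01, 0.02 and 0.04, each smaller than its SE of 0.24, 0.24 and 0.10. With shCtrl replicate 2, shYthdf2 replicate 1 or shYthdf2 replicate 3 left out, 7 of the 10 were above 0. With both libraries of replicate 2 left out, 8 were. The median size of the fold change was 0.19 in the family and 0.25 over all genes.

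Sema4c, whose product is a ligand of Plexin-B2, had 3247, 3288 and 3220 normalized counts in shYthdf2 replicates 1, 2 and 3 and 2446, 2940 and 2349 in shCtrl. All 3 shYthdf2 libraries lay above all 3 shCtrl libraries, of which replicate 2 was the highest. The mean of 3252 ± 34.1 was 126.1% of the shCtrl mean of 2578 ± 317 (SD, n = 3), a log2 fold change of 0.33 (SE 0.11, 95% interval 0.08 to 0.59, edgeR adjusted p = 0.155). The exact two-sided permutation test gave p = 0.1, the smallest that 3 against 3 allows. The difference held in each replicate number, at 0.41, 0.16 and 0.45 on the log2 scale. In these bulk cultures, more RNA per cell and more cells of a type that expresses a gene cannot be told apart. Sema4c (ENSMUSG00000026121, GRCm38 chr1:36548639-36558349, minus strand) shares 334 exon bases with D430040D24Rik on the opposite strand, which had 109 to 155 counts where Sema4c had 2137 to 3389, and reads there cannot be assigned without strand.

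Sema4d, the ligand of Plexin-B1, had 1710, 1783 and 1707 normalized counts in shYthdf2 and 1408, 1581 and 1360 in shCtrl. The groups again did not overlap, and replicate 2 was the highest in both. The log2 fold change was 0.26 (SE 0.10, 95% interval 0.03 to 0.48, edgeR adjusted p = 0.195), and the shYthdf2 mean was 119.6% of the shCtrl mean. By replicate number the difference was 0.28, 0.17 and 0.33. The gene (ENSMUSG00000021451) lies at chr13:51685529-51793747 on the minus strand.

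The other semaphorins overlapped between the groups. Sema4a, a ligand of B and D plexins, had 323.3, 221.2 and 320.8 normalized counts in shYthdf2 and 261.0, 206.5 and 226.5 in shCtrl. Replicate 2 was the lowest in each group, and 2 of the 3 shYthdf2 libraries were above all shCtrl libraries. The log2 fold change was 0.32 (SE 0.19, edgeR adjusted p = 0.405). Sema4f had 3120, 2523 and 3199 normalized counts in shYthdf2 and 2791, 2291 and 2765 in shCtrl. Replicate 2 was again the lowest in both groups, while the difference within each replicate number was alike, at 0.16, 0.14 and 0.21 on the log2 scale. The pooled log2 fold change was 0.17 (SE 0.13, edgeR adjusted p = 0.507). With the replicate number as a block the edgeR adjusted p of Sema4f was 0.128, and 3 of the 10 members, Sema4c, Sema4d and Sema4f, reached an unadjusted p of 0.05, where 31.6% of all genes did.

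Sema4g and Sema4b showed no difference larger than the spread. Sema4g had 5937, 3697 and 6268 normalized counts in shYthdf2 and 6052, 3852 and 5784 in shCtrl. Here replicate 2 was far below the others, at 0.606 of the mean of replicates 1 and 3 in shYthdf2 and 0.651 in shCtrl. The log2 fold change of Sema4g was 0.02 with a 95% interval of -0.55 to 0.58. Sema4b was the 1 member with a fold change below 0. It had 480.3, 374.5 and 440.8 normalized counts in shYthdf2 and 509.5, 389.7 and 532.1 in shCtrl, a log2 fold change of -0.14 (SE 0.16, edgeR adjusted p = 0.668). Its groups overlapped, and the difference was below 0 in all 3 replicate numbers. On GRCm38, Sema4a (ENSMUSG00000028064) lies at chr3:88435959-88461182 and Sema4f (ENSMUSG00000000627) at chr6:82911885-82939769, both on the minus strand. Sema4g (ENSMUSG00000025207, chr19:44989101-45003397) and Sema4b (ENSMUSG00000030539, chr7:80186841-80226527) are on the plus strand. Gm45206 lies on the same strand at the Sema4b locus with 0 shared exon bases and 4 to 11 counts.

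**Figure D2:**
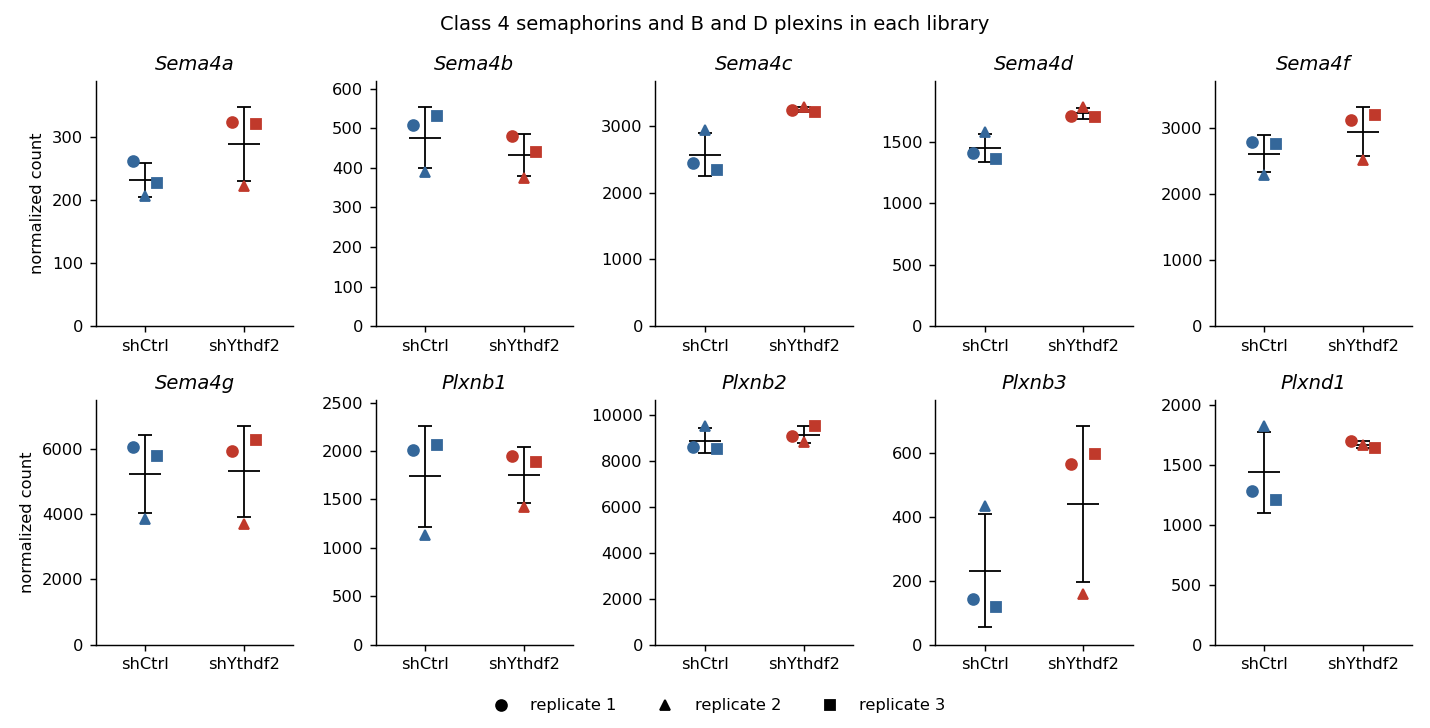
Normalized counts (TMM-scaled, axes from 0) of the 10 genes in each library, by group, with circles, triangles and squares for replicates 1, 2 and 3 and black bars for the mean ± SD. Sema4c and Sema4d are the 2 genes with no overlap between the groups, and replicate 2 of Sema4g, Plxnb1 and Plxnb3 lies apart from replicates 1 and 3.

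Among the receptors, Plxnb2 had 9074, 8788 and 9512 normalized counts in shYthdf2 and 8579, 9503 and 8510 in shCtrl. The groups overlapped, with the shCtrl replicate 2 among the highest of the 6. The log2 fold change was 0.04 (SE 0.10) and its 95% interval of -0.18 to 0.27 was among the narrowest of the family. The gene (ENSMUSG00000036606) lies at chr15:89155549-89180788 on the minus strand. Plxnb1, the receptor of Sema4D, had 1947, 1423 and 1885 normalized counts in shYthdf2 and 2013, 1135 and 2067 in shCtrl. Replicate 2 was the lowest in both groups, and the log2 fold change of 0.01 had an interval of -0.55 to 0.57. Gm7628, on the opposite strand with 257 shared exon bases, had 9 to 36 counts where Plxnb1 (ENSMUSG00000053646, chr9:109095389-109119917, plus strand) had 1171 to 2268.

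Plxnd1 encodes the receptor of Sema3E and is known from vascular and axonal guidance. It had 1695, 1667 and 1637 normalized counts in shYthdf2 and 1282, 1824 and 1203 in shCtrl. The 3 shYthdf2 libraries were close together, and the shCtrl replicate 2 was above all of them while the other shCtrl libraries were below. The log2 fold change was 0.21 (SE 0.16, 95% interval -0.16 to 0.59, edgeR adjusted p = 0.505), from 0.40, -0.13 and 0.44 in replicate numbers 1, 2 and 3. The gene (ENSMUSG00000030123) lies at chr6:115954811-115995005 on the minus strand.

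Plxnb3, a receptor of Sema5A, had the largest log2 fold change of the 10 and also the widest interval. It had 564.0, 159.1 and 596.9 normalized counts in shYthdf2 and 142.0, 434.3 and 117.6 in shCtrl. Replicates 1 and 3 of shYthdf2 and replicate 2 of shCtrl were high, and the other 3 libraries were low, so the groups overlapped. The log2 fold change was 0.92 (SE 0.62, 95% interval -0.53 to 2.38, edgeR adjusted p = 0.450). Within replicate numbers 1, 2 and 3 the difference was 1.99, -1.45 and 2.34 on the log2 scale, with replicate 2 in the opposite direction. Replicate 2 was at 0.274 of the mean of replicates 1 and 3 in shYthdf2 and at 3.35 times that mean in shCtrl. With 1 library left out the log2 fold change went from 0.60 (without shCtrl replicate 3) to 1.75 (without shCtrl replicate 2). The gene (ENSMUSG00000031385) lies at chrX:73757090-73772514 on the plus strand.

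**Figure D3:**
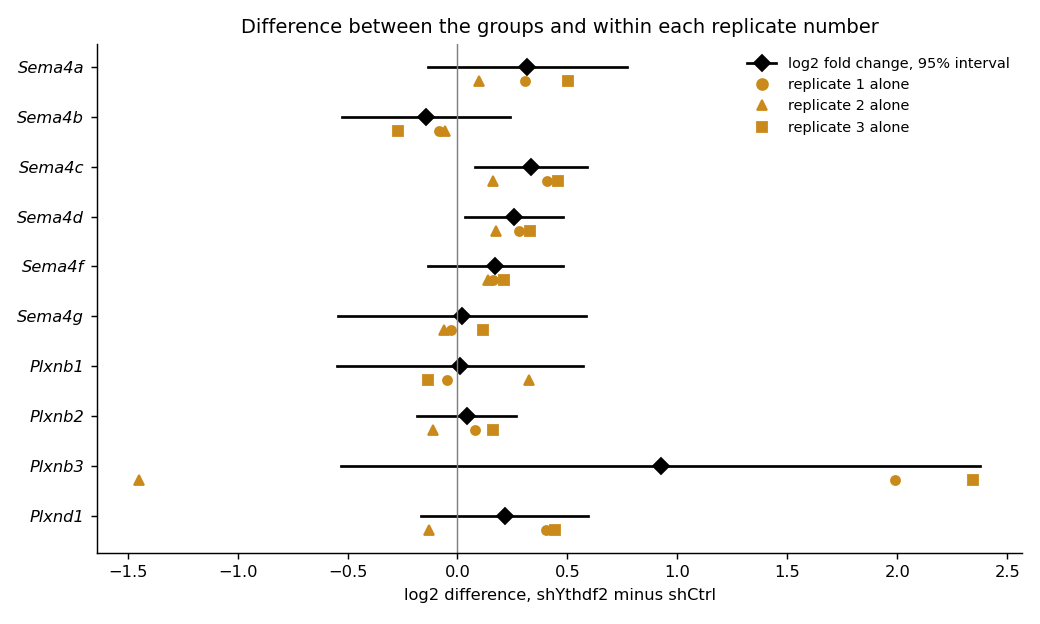
Log2 difference between shYthdf2 and shCtrl for the 10 genes, with the fitted log2 fold change and its 95% interval in black and the difference within each replicate number in ochre. The intervals of Sema4c and Sema4d lie above 0, and replicate 2 of Plxnb3 stands at -1.45 while replicates 1 and 3 stand at 1.99 and 2.34.

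Microglial markers were laid out across the libraries much as Plxnb3 was, while the other glial lists followed it in shCtrl and not in shYthdf2. The summed normalized counts of the 5 microglial markers were 699.0, 196.0 and 721.2 in shYthdf2 replicates 1, 2 and 3 and 136.7, 497.3 and 126.4 in shCtrl. The same libraries were high and low as for Plxnb3. Of these markers, C1qa, a complement gene, had 294.0, 81.5 and 307.0 normalized counts in shYthdf2 and 39.1, 164.8 and 41.8 in shCtrl, while P2ry12 was near 0 in every library. Sox10, a transcription factor of the oligodendrocyte lineage, had 694.8, 486.1 and 772.2 in shYthdf2 and 228.1, 995.6 and 223.2 in shCtrl. Over the 8 oligodendrocyte markers the sums were 13550, 18070 and 13960 in shYthdf2 and 5222, 17680 and 5031 in shCtrl, and here replicate 2 was high in both groups. The 5 markers of astrocytes and Bergmann glia summed to 8674 to 9242 in shYthdf2, with the 3 libraries alike, and to 4675, 10330 and 4758 in shCtrl. Endothelial markers were low, with summed counts of 66.0 to 307.6, and Cldn5 and Tie1 did not pass the filter.

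The order seen in Plxnb3, higher in shYthdf2 in replicates 1 and 3 and lower in replicate 2, was held by Plxnb2, Plxnb3 and Plxnd1 of the family. It was held by all 4 microglial markers tested, 4 of 5 astrocyte markers, 5 of 8 oligodendrocyte markers and 14.53% of all genes. It was also held by 1 of 3 endothelial, 1 of 7 granule neuron, 0 of 4 granule progenitor and 0 of 4 Purkinje cell markers tested. All 8 oligodendrocyte, all 4 microglial and all 5 astrocyte markers had log2 fold changes above 0, and none passed an adjusted p of 0.05, with 1, 0 and 1 of them at an unadjusted p of 0.05. The glial markers were therefore higher on average in the same group as Sema4c, Sema4d and Plxnb3. So were the 4 granule progenitor markers tested, Atoh1 at 171.9%, Mki67 at 161.0%, Top2a at 170.1% and Mycn at 128.9% of shCtrl, none at an unadjusted p of 0.05. The 3 endothelial markers tested were higher too, none at that p. The 4 Purkinje cell markers split, with Pcp4 (241.2% of shCtrl) and Car8 (128.0%) higher and Calb1 (72.9%) and Pcp2 (85.9%) lower. Of these 4, only Pcp4 reached an unadjusted p of 0.05. Of the 7 granule neuron markers, Neurod1 (80.3% of shCtrl) and Cntn2 (71.9% of shCtrl) were lower at that p, with groups that did not overlap, and none passed the adjusted p. Zic1 had the most counts of the 7. Replicate 2 of Gabra6 was at 2.54 times the mean of replicates 1 and 3 in shYthdf2 and 2.88 times in shCtrl. For Pax6 these ratios were 0.768 and 0.820, and for Cntn2 0.690 and 0.948. Those of Neurod1, Zic1, Zic2 and Rbfox3 lay between 0.94 and 1.03. The part of these cell types in the differences of the family was not tested.

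**Figure D4:**
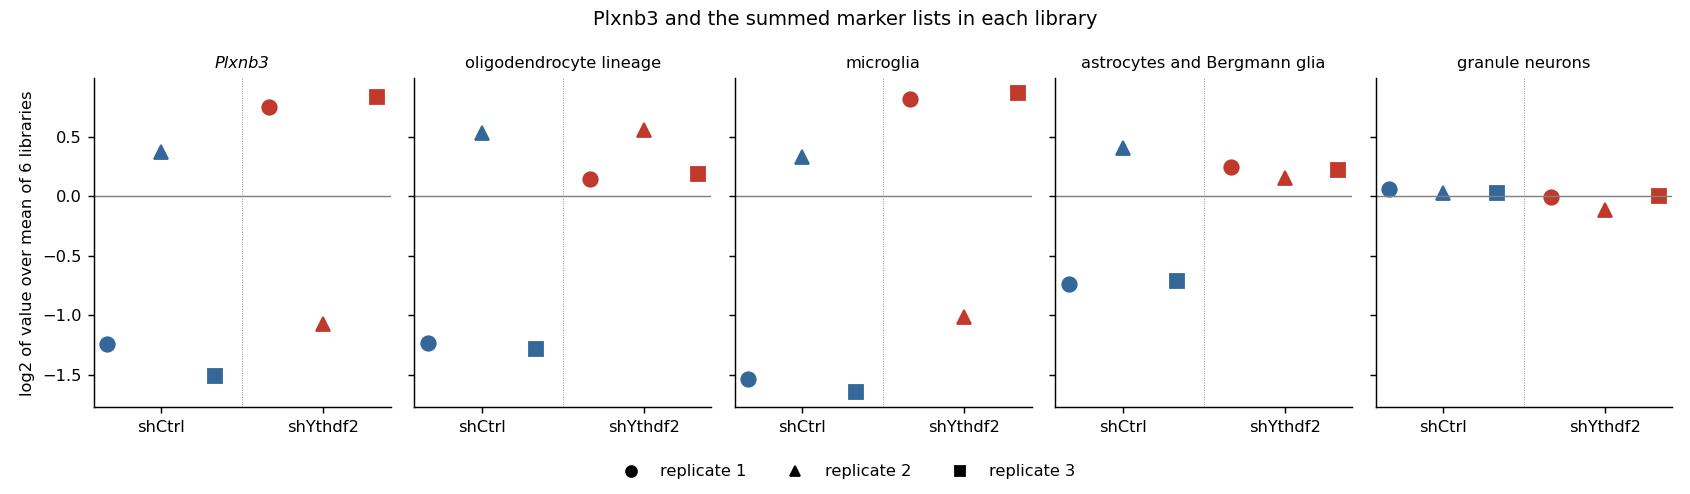
Normalized count of Plxnb3 and summed normalized counts of 4 marker lists in each library, as log2 of the value over the mean of the 6 libraries, with shapes for replicates 1, 2 and 3. Plxnb3 and the microglial list are high in the same 3 libraries. The granule neuron sum, in which Zic1 has the most counts, stays near 0 throughout, which does not hold for each of its markers.

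The distance of replicate 2 from the other libraries was as large in the family as in the rest of the table. Its median absolute log2 distance from the mean of replicates 1 and 3 was 0.31 in shYthdf2 and 0.36 in shCtrl over the 10 genes, and 0.31 and 0.37 over all genes. For 8 of the 10 that distance exceeded the fold change in at least 1 group, Sema4c and Sema4d being the exceptions. Plxnb2 and Plxnb3 were the 2 genes whose replicate 2 moved in opposite directions in the 2 groups.

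Results that rest on these libraries are therefore given without them as well. With a term for replicate 2 in the fit, Sema4c, Sema4d and Sema4f had edgeR adjusted p-values of 0.0230, 0.0251 and 0.0430, where 22.1% of all genes passed. Without the shCtrl replicate 2 alone, Sema4c, Sema4d and Plxnd1 passed, where 18.3% did. With both libraries of replicate 2 left out, 7 of the 10 passed, all higher in shYthdf2, but so did 52.7% of all genes, and in that fit the spread comes from replicates 1 and 3 alone, which were nearly alike within each group. The fitted log2 fold change was then 2.15 for Plxnb3, 0.43 for Sema4c, 0.42 for Plxnd1, 0.39 for Sema4a and 0.30 for Sema4d. Over the 14 alternatives that kept at least 1 library of replicate 2, the adjusted p went from 0.0102 to 0.482 for Sema4c, from 0.0251 to 0.536 for Sema4d, from 0.0430 to 0.817 for Sema4f and from 0.0158 to 0.853 for Plxnd1. That of Plxnb3 went from 0.0764 to 0.757.

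The partners through which these ligands and receptors act were read from a list of 29 genes, of which 28 were tested, Timd2 being at 0 in all libraries. None passed the adjusted p. At an unadjusted p of 0.05, 8 of the 28 did, 3 higher and 5 lower in shYthdf2, beside the 20.1% of all genes given above, and 9 of the 28 had groups without overlap, beside 26%. The median log2 fold change of the list was -0.05.

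Among the ligands outside class 4, Sema3c had 29.3, 31.1 and 13.8 normalized counts in shYthdf2 and 47.9, 61.1 and 52.8 in shCtrl (log2 fold change -1.12, SE 0.35, edgeR adjusted p = 0.143). Sema3e, the ligand of Plexin-D1, and Sema5a, the ligand of Plexin-B3, overlapped between the groups. Among the co-receptors, Nrp1, which encodes neuropilin-1, had 251.1, 393.0 and 309.1 normalized counts in shYthdf2 and 121.6, 192.9 and 126.4 in shCtrl. Its groups did not overlap and the mean was 216.2% of shCtrl (log2 fold change 1.11, SE 0.25, edgeR adjusted p = 0.0815). Kdr, which encodes a VEGF receptor that can join Plexin-D1, was at 177.5% of shCtrl (log2 fold change 0.82, SE 0.23, edgeR adjusted p = 0.119). Met and Erbb2, receptor kinases that associate with Plexin-B1, and Cd72, a Sema4D receptor of immune cells, overlapped.

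Of the 9 small GTPases, Mras, a substrate of the plexin GTPase-activating domain, had 1140, 1400 and 1194 normalized counts in shYthdf2 and 1755, 2015 and 1733 in shCtrl. The groups did not overlap (log2 fold change -0.56, SE 0.12, edgeR adjusted p = 0.0718). Rnd3, of a family that binds plexins, had a log2 fold change of -0.44 and Rap1a one of 0.34, both without overlap between the groups. For Rnd3 the replicate 2 difference was only -0.012, beside -0.72 and -0.60 in replicates 1 and 3. Rras, at -0.36, did not overlap either but missed the unadjusted p, while Rhoa and Rac1 stood at -0.15 and -0.11 with overlapping groups. Of the 2 exchange factors that link B plexins to RhoA, Arhgef11 was at 75.1% of shCtrl (log2 fold change -0.41, SE 0.12, edgeR adjusted p = 0.128), and Arhgef12 had a log2 fold change of -0.07. Limk1, the kinase that phosphorylates cofilin downstream of RhoA and its kinases, had 1587, 1916 and 1644 normalized counts in shYthdf2 and 4033, 2489 and 3803 in shCtrl. All 3 shYthdf2 libraries were below the shCtrl libraries with a mean at 49.9% of shCtrl (95% interval of the log2 fold change -1.45 to -0.56, edgeR adjusted p = 0.0585), and the replicate 2 difference of -0.38 was smaller than those of -1.35 and -1.21. Limk2, Rock1, Rock2 and the cofilin gene Cfl1 overlapped, as did the adaptors Gipc1 and Dlg4 and the proteases Adam17 and Mmp14. With the replicate block, Nrp1 and Mras each had an edgeR adjusted p of 0.0450, so that 2 of the 28 passed, where 1.35% of all genes did.

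**Figure D5:**
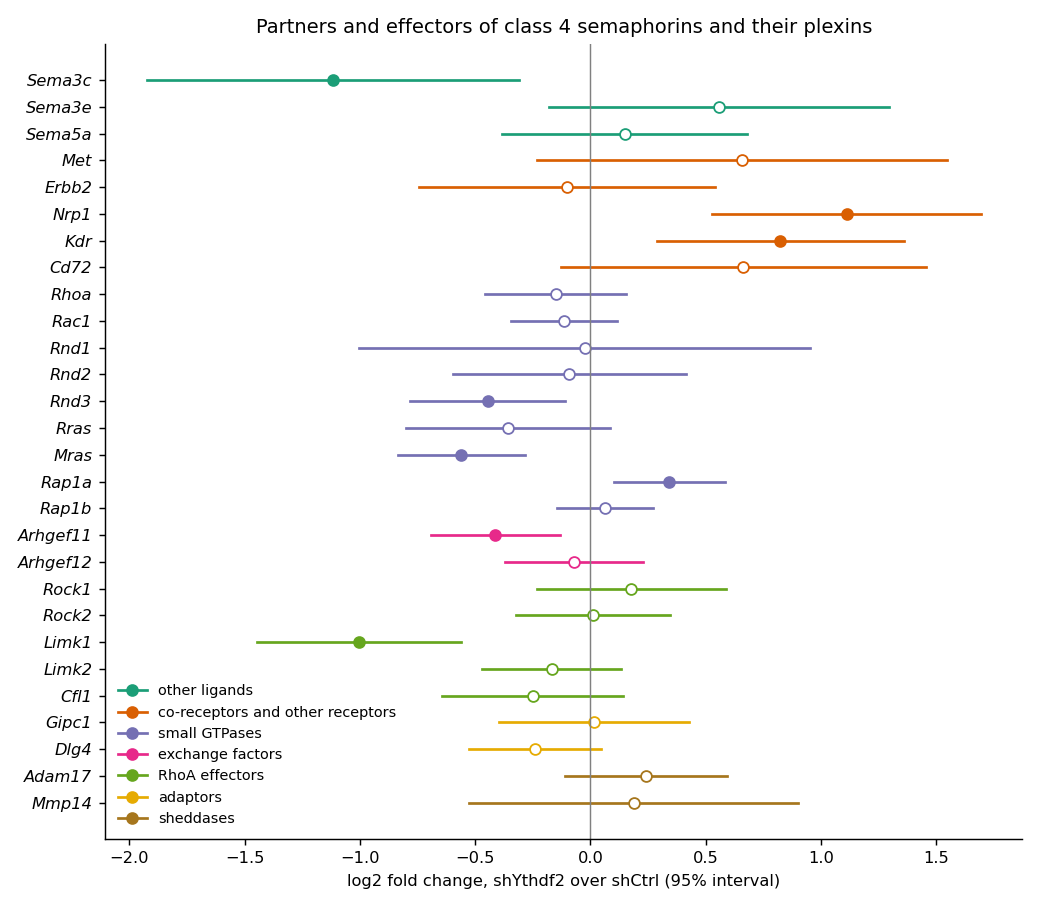
Log2 fold change with its 95% interval for the 28 tested partners and effectors, coloured by role, with filled points for an unadjusted p under 0.05. Limk1, Sema3c, Mras, Rnd3 and Arhgef11 are filled on the lower side and Nrp1, Kdr and Rap1a on the higher side, and none passed the adjusted p.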

How the data were processed

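The authors deposited 1 table of raw read counts per gene for 6 libraries. Per the study's methods, libraries from a NEBNext kit were aligned by HISAT and TopHat2 (GRCm38) and HTSeq gave the counts, whereas the labels name a TruSeq kit and the submitters' processing notes mm9 and Bowtie 0.12.2. Whether strand was used is not given in the sources used here. Coordinates were taken by gene ID from the GRCm38 annotation and promoters from RefSeq.

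Libraries were grouped by their sample descriptions. In edgeR 4.0.16 (R 4.3.3), filterByExpr (minimum count 10, minimum total 15) kept 17214 of 53421 genes with 99.84% of the counts. TMM factors, the quasi-likelihood test and Benjamini-Hochberg adjustment over all genes tested followed. The fit was also run on simulated counts, drawn without a shift of replicate 2. That run therefore does not cover the distance of replicate 2 seen in these libraries. Values shown are TMM-normalized counts, and RPKM divides them by exon length. The replicate numbers came from the titles, and the replicate block used them as pairs, which no label states. In the sample descriptions, the libraries numbered 3 here are named KD2_3_4 and KDC_4. The deviations from the group means correlated at 0.250, 0.361 and 0.305 within replicate numbers 1, 2 and 3. Since replicate 2 stood apart in both groups, these correlations cannot show that the libraries numbered 1 or 3 were paired. Across genes, shYthdf2 replicate 1 correlated at 0.9675 with shCtrl replicate 1 and at 0.9658 with shCtrl replicate 3. For shYthdf2 replicate 3 the values were 0.967 with shCtrl replicate 3 and 0.9653 with shCtrl replicate 1. The exact permutation test was two-sided.

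Alternatives were other size factors, DESeq2 1.42.0, limma-voom (limma 3.58.1), other filters, the replicate block, a term for replicate 2 and each library left out. Leaving out both libraries of replicate 2 was added after seeing the data. No label sets replicate 2 apart as a batch, so the term for it also rests on these same libraries. Named were all 10 members, Ythdf2, and from the partner and marker lists the genes that show the counts given. The members and lists were chosen with earlier results of these data known.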

Additional observations from a re-analysis of the deposited data

How the results depend on the processing

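The 104 genes past the adjusted p in edgeR became 1320 with DESeq2, 24 with limma-voom, 639 without a filter, 232 with the replicate block, 3799 with a term for replicate 2, 9186 with both libraries of replicate 2 left out, and 0 to 3239 with 1 library left out. The 3239 came without shCtrl replicate 2 and 829 without shYthdf2 replicate 2, and 0 without any of the other 4 libraries. Of the 10 members, 0 passed the adjusted p and 3 did with the replicate 2 term, 7 with both of its libraries left out and 0 to 3 with 1 library left out, the 3 without shCtrl replicate 2. At the unadjusted p, 2 became 1 without a filter (12.9% of all genes), 4 with the replicate 2 term (39.5%), 9 with both libraries left out (57.6%) and 0 to 4 with 1 left out (11.2% to 34%): 0 without replicate 1 of either group or shCtrl replicate 3, 1 without shYthdf2 replicate 3, 3 without shYthdf2 replicate 2 and 4 without shCtrl replicate 2. The 8 partner genes at that p became 14 with the replicate 2 term, 21 with both libraries left out and 6 to 13 with 1 left out. At the adjusted p, where the edgeR test called 0 of the 28, DESeq2 called 4 (8.88% of all genes), and edgeR called 3 without a filter (1.98%), 9 with the replicate 2 term (22.1%), 9 without shCtrl replicate 2 (18.3%), 1 without shYthdf2 replicate 2 (4.7%) and 21 with both libraries left out (52.7%).

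The sign of the log2 fold change reversed only for Sema4g (-0.16 to 0.22 with 1 library left out) and Plxnb1 (-0.22 to 0.15, and -0.094 with both libraries of replicate 2 left out). Of 150 alternative values over the 10 members, 130 kept direction and side of the adjusted threshold, 13 newly passed it and 7 reversed. The replicate block changed no call besides those of Sema4f, Nrp1 and Mras and the partner genes at the unadjusted p, which came to 11. RLE size factors and library size alone changed no call of a member. The cause of these changes was not tested. Differences of the size seen in Sema4g and Plxnb1 were below the spread of 3 libraries. Annotated small RNAs within member loci (Mir7011, Gm23566, Mir7118) were at 0.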
